A study of Mus musculus with 16 samples.

Results

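Adipokines are proteins that fat tissue releases into the blood. The 6 genes described here encode adipokines other than adipsin, and each was found by its gene symbol in a table of 19373 genes. *Lep* encodes leptin, *Adipoq* adiponectin, *Retn* resistin, *Rbp4* the retinol-binding protein of plasma, *Nampt* an enzyme of NAD synthesis that is also released from cells, and *Rarres2* chemerin. All 6 had 1 row in the table, and all 6 were among the 13148 genes tested.

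RNA was sequenced from gonadal white adipose tissue (gWAT, the fat pad around the testes) of 16 male C57Bl6/J mice, as 1 library per mouse. Every mouse carried the floxed *Mboat7* allele, made from a KO-first allele by removing its cassette with FLP recombinase. The control genotype (Flox) had no Cre, while the *Mboat7* ASKO genotype (Flox Adiponectin Cre) also carried a Cre transgene under the adiponectin promoter/enhancer, so the Cre was driven by regulatory sequence of *Adipoq*, which is also 1 of the 6 genes. Each genotype received chow or a high-fat diet, called HFD, over 20 weeks and was fasted for 4 h before the tissue was taken, with 4 mice in each of the 4 groups. The mice were age-matched, and the age at the start of the diet is not given in the sources used here. MBOAT7 is an enzyme that attaches arachidonic acid to lysophosphatidylinositol, and only cells that express the Cre lose it, so the other cells of the fat pad kept the gene. The values were FPKM (fragments per kilobase of transcript, relative to the depth of the library), made by the authors from the reads. A gene was called in a comparison when limma gave an absolute log2 fold change above 0.5 and a p-value that stayed under 0.05 after Benjamini-Hochberg adjustment across the tested genes, with every fold change on the log2(FPKM + 1) scale.

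The libraries differed in their totals and depth. The FPKM sums ran from 606407 to 982016 per mouse, and the 10 highest genes took between 32.6% and 55.2% of that sum. From the steps of low values, a mouse held an estimated 229589 to 405163 fragments on the scale of these values. By this estimate the libraries were shallow, and genes at a few FPKM rested on few fragments. The estimate is rough, since between 50.6% and 76.5% of the low values in a mouse lay within 0.2 of a whole step. It gave 0.186 fragments of *Mboat7* to a chow-fed control mouse at 0.902 FPKM, which cannot be a true count. In ASKO mice, this estimate separated the diets, with 229589 to 335053 fragments on chow and 348031 to 399531 on HFD, while the diets overlapped in control mice (290119 to 359348 and 287232 to 405163). The part of depth in the diet results of ASKO mice was not tested. *Mboat7* itself was at 2.42, 4.33, 0.902 and 4.99 FPKM in chow-fed control mice and at 0, 1.39, 0 and 2.89 FPKM in chow-fed ASKO mice (exact permutation test, two-sided, p = 0.143). On HFD it was at 0, 0, 2.15 and 1.61 FPKM in the control mice and at 1.14, 0, 2.60 and 0 FPKM in the ASKO mice (exact permutation test, p = 1). These values did not show its loss from adipocytes, and the reason was not tested. By Western blot, the authors found less MBOAT7 protein in gWAT of chow-fed ASKO mice than of controls. All 12 adipocyte markers on the list used were present in every group, while *Ucp1*, the gene of the brown fat uncoupling protein, was listed at 0 in 15 of 16 mice.

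Leptin, adiponectin and resistin are made mainly by fat cells in mice. Leptin informs the brain of the size of the fat stores and lowers food intake, and its release usually follows fat mass. Adiponectin is abundant in plasma, raises fatty acid oxidation and insulin sensitivity through its receptors in liver and muscle, and usually falls in obesity. Resistin opposes the action of insulin in mice. RBP4 carries retinol in the blood, NAMPT makes the NAD precursor nicotinamide mononucleotide, and chemerin attracts cells of the immune system that carry its receptor.

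The transcripts of leptin, adiponectin and resistin set the mice on HFD apart from those on chow, in opposite directions. *Lep* was the gene that rose, and *Adipoq* and *Retn* fell. The stretches of 250 bases before the start sites of these 3 genes are shown because their transcripts moved with the diet in both genotypes. They are printed 5′ to 3′ on the strand of the gene, from RefSeq on GRCm38.p6, which is the mm10 build, and 5 of the 6 genes were matched in that table. The windows are chr6:29059971-29060220 for *Lep*, chr16:23146286-23146535 for *Adipoq* and chr8:3655520-3655769 for *Retn*, all on the plus strand. Capitals mark the motifs that were searched for, on both strands: the C/EBP palindrome TTGCGCAA, the CCAAT box CCAAT, the TATA box TATAA, the GC box GGGCGG and the nuclear receptor half-site AGGTCA.
Lep: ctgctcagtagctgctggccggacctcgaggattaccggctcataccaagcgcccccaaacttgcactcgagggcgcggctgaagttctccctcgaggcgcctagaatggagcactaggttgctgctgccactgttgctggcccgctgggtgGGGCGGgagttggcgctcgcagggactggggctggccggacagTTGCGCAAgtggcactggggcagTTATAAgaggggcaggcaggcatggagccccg
Adipoq: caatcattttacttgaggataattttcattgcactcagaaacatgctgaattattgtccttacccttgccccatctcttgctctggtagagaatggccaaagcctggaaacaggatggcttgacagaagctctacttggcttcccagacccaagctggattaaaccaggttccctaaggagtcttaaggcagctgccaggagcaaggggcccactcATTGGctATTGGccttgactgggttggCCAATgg
Retn: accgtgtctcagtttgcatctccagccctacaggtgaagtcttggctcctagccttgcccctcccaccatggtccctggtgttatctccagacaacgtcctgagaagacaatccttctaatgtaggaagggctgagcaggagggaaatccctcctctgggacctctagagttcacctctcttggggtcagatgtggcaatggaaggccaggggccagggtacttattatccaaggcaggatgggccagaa

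The *Lep* window held the C/EBP palindrome 55 to 48 bases before the start, a string found in 0.164% of 32851 such windows of the mouse genome. It also held TATAA on both strands, from 32 to 27 bases before the start with the matches overlapping, which 22.8% of windows hold on at least 1 strand. A GC box lay 98 to 93 bases before the start of *Lep* (32.7% of windows). The *Adipoq* window held 3 CCAAT boxes, at 34 to 30 and 27 to 23 bases before the start on the minus strand and at 7 to 3 bases on the plus strand (33.9% of windows have at least 1). None of the 5 letter strings was found in the *Retn* window. These matches describe letters only, and binding was not measured here.

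The leptin transcript rose on HFD in both genotypes. *Lep* (ENSMUSG00000059201.12, chromosome 6 from 29060220 to 29073877, plus strand) was at 103, 181, 159 and 174 FPKM in chow-fed control mice and at 891, 505, 609 and 458 FPKM in HFD-fed control mice. Every control mouse on HFD lay above every control mouse on chow. The group means were 154 ± 35.3 and 616 ± 194 FPKM (SD, n = 4), a 3.99-fold difference. In the ASKO mice, the values were 72.7, 209, 179 and 133 FPKM on chow and 497, 539, 312 and 360 FPKM on HFD, again without overlap. Their means were 148 ± 59.3 and 427 ± 108 FPKM (SD, n = 4), which differ 2.88-fold. The log2 fold change with HFD was 1.98 in control mice (SE 0.33, limma adjusted p = 0.00222) and 1.59 in ASKO mice (SE 0.33, limma adjusted p = 0.0111). *Lep* rested on an estimated 54.4 to 1177 fragments per mouse.

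The adiponectin transcript went the other way. *Adipoq* (ENSMUSG00000022878.5, chromosome 16 from 23146536 to 23158028, plus strand) was at 986, 1871, 1448 and 1351 FPKM in chow-fed control mice and at 539, 367, 432 and 414 FPKM in HFD-fed control mice. The ASKO mice had 679, 1226, 961 and 1379 FPKM on chow and 462, 318, 395 and 415 FPKM on HFD. In both genotypes, the highest mouse on HFD lay below the lowest mouse on chow. The means fell 3.23-fold in control mice, from 1414 ± 364 to 438 ± 72.8 FPKM, and 2.67-fold in ASKO mice, from 1061 ± 308 to 398 ± 59.8 FPKM (SD, n = 4). The log2 fold changes were -1.67 (SE 0.25, limma adjusted p = 0.00117) and -1.38 (SE 0.25, limma adjusted p = 0.00470). With 141 to 727 estimated fragments per mouse, *Adipoq* was among the better covered genes of the table.

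The resistin transcript had the largest fold with diet of the 6 genes. *Retn* (ENSMUSG00000012705.16, chromosome 8 from 3655770 to 3660110, plus strand) was at 97.8, 263, 124 and 194 FPKM in chow-fed control mice and at 73.6, 23.9, 23.5 and 4.98 FPKM in HFD-fed control mice. In the ASKO mice it was at 203, 316, 221 and 217 FPKM on chow and at 41.9, 22.3, 30.2 and 21.6 FPKM on HFD. Neither genotype showed overlap between the diets, although the control mouse at 73.6 FPKM came close to the lowest chow value. The means were 169.5 ± 74.2 and 31.5 ± 29.4 FPKM in control mice and 239 ± 51.7 and 29.0 ± 9.46 FPKM in ASKO mice (SD, n = 4). The log2 fold changes were -2.80 (SE 0.55, limma adjusted p = 0.00811) and -3.03 (SE 0.55, limma adjusted p = 0.00398). On HFD, *Retn* rested on an estimated 1.63 to 34.0 fragments per mouse, so its values there are coarse. The ASKO mouse at 316 FPKM on chow stood apart from the other 3, which were between 203 and 221 FPKM.

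The other 3 adipokine genes did not pass the limits with diet in either genotype. *Rbp4* (ENSMUSG00000024990.12, chromosome 19 from 38116620 to 38125321, minus strand) was at 45.4, 180, 91.9 and 89.4 FPKM in chow-fed control mice and at 41.6, 47.5, 24.9 and 34.4 FPKM in HFD-fed control mice. These groups overlapped through the lowest chow mouse. The ASKO mice had 106, 132, 150 and 124 FPKM on chow and 77.7, 68.5, 48.9 and 98.3 FPKM on HFD, and these did not overlap. The log2 fold changes with HFD were -1.31 (SE 0.36, limma adjusted p = 0.0639) in control mice and -0.83 (SE 0.36, limma adjusted p = 0.275) in ASKO mice. Without the control chow mouse at 45.4 FPKM, the value in control mice was -1.63 (limma adjusted p = 0.0147), which passes the limits.

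*Nampt* (ENSMUSG00000020572.7, chromosome 12 from 32820335 to 32853369, plus strand) had the lowest mean of the 6 in all 4 groups. Its values were 20.4, 29.1, 23.8 and 26.3 FPKM in chow-fed control mice and 17.7, 17.1, 23.0 and 14.4 FPKM in HFD-fed control mice. In the ASKO mice they were 14.3, 12.5, 33.6 and 22.1 FPKM on chow and 20.3, 27.3, 22.2 and 23.2 FPKM on HFD. The diet groups overlapped in both genotypes. The log2 fold changes with HFD had opposite signs, -0.45 in control mice (95% interval -1.13 to 0.22) and 0.26 in ASKO mice (-0.41 to 0.94). The difference between them was 0.71 (95% interval -0.24 to 1.67, limma adjusted p = 0.838). The exact permutation test over 4900 regroupings, two-sided, gave p = 0.0633.

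*Rarres2* (ENSMUSG00000009281.6, minus strand of chromosome 6, from 48569696 to 48572789 in GENCODE M21) showed the least order. It was at 49.6, 106, 95.6 and 114 FPKM in chow-fed control mice and at 127, 72.2, 72.2 and 119 FPKM in HFD-fed control mice. The ASKO mice had 91.8, 75.4, 164 and 82.4 FPKM on chow and 64.8, 98.5, 56.2 and 62.8 FPKM on HFD. All 4 groups overlapped, and the log2 fold changes with HFD were 0.11 in control mice (95% interval -0.60 to 0.82) and -0.51 in ASKO mice (-1.22 to 0.20). The deposited locus of this gene starts at 48554796 and so also spans *Lrrc61*, whose exons overlap those of *Rarres2* on the other strand. Whether strand was used in making the values is not given in the sources used here, so reads of the 2 genes may not be told apart.

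**Figure D1:**
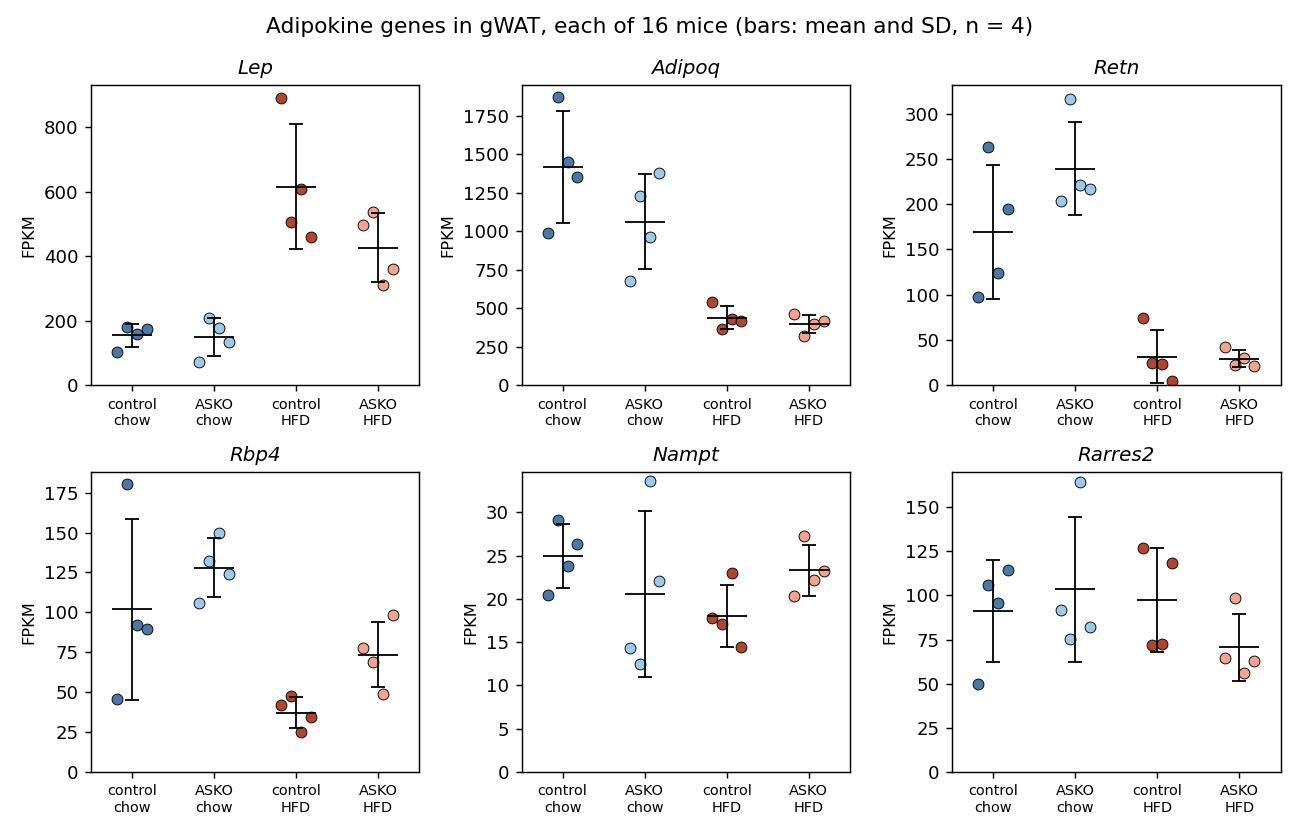
FPKM of each adipokine gene (vertical axes, each from 0) in every mouse of the 4 groups (points), with the group mean and SD (bars, n = 4). *Lep* sits between 312 and 891 FPKM on HFD and between 72.7 and 209 FPKM on chow, while the *Adipoq* and *Retn* points on HFD lie below all chow points of the same genotype.

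In all, 3 of the 6 adipokine genes were called with diet in control mice, 1 higher and 2 lower on HFD, against 2.91% of all tested genes (383 of 13148). In ASKO mice, 3 of 6 were again called, the same 3 in the same directions, against 3.43% of all tested genes (451). The median log2 fold change of the 6 was -0.88 in control mice and -0.67 in ASKO mice, and the median over all tested genes was 3.60e-05 and 0.03. Diet groups did not overlap for 3 of the 6 in control mice (8.34% of all tested genes) and for 4 of the 6 in ASKO mice (9.6%), with *Rbp4* as the fourth. Both counts held in every fit that left out 1 mouse, apart from 4 calls in control mice without the chow mouse named above for *Rbp4*. When only the 8 mice compared entered the fit, 2 of the 6 were called in each genotype. *Retn* was then lost in control mice (adjusted p = 0.0760) and *Lep* in ASKO mice (adjusted p = 0.0599). With a filter of 5 FPKM, 415 of 7649 tested genes were called with diet in control mice and 482 in ASKO mice. *Rbp4* also passed in control mice under that filter. The 6 genes were chosen with earlier results of these data known, so the shares over all genes are background and not a test.

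Bulk values cannot tell fewer cells of a type from less RNA per cell. The summed FPKM of the 12 adipocyte markers ran from 9143 to 13883 in control mice on chow and from 4265 to 10159 on HFD, and from 8089 to 24142 and from 6376 to 7086 in ASKO mice. Most of each sum was *Fabp4*, which stood at 22038 FPKM in the ASKO chow mouse with the highest sum. The mean log2 value of the 12, where each gene weighs the same, was 6.59 on chow and 5.93 on HFD in control mice. In ASKO mice it was 6.65 and 5.87. Of these markers, 0 of 12 were called with diet in control mice and 2 of 12 in ASKO mice, both lower (*Plin4*, a lipid droplet coat protein, and *Pnpla2*, the first lipase of triglyceride breakdown). All 12 had a log2 fold change below 0 in control mice, and 10 of 12 in ASKO mice. The summed FPKM of 10 macrophage markers lay between 264 and 325 on chow and between 673 and 1106 on HFD in control mice, and between 250 and 305 and between 845 and 1281 in ASKO mice, with 5 and 7 of 10 called higher on HFD. Of 6 mesothelial markers, 2 were called lower on HFD in control mice and none in ASKO mice. All 6 had a log2 fold change below 0 in both genotypes, with medians of -1.55 in control mice and -0.90 in ASKO mice. None of 6 endothelial and 6 progenitor and fibroblast markers was called with diet in either genotype. Of 8 testis and epididymis markers, 1 was in the table and it was too low to be tested, and of 5 skeletal muscle markers 1 was in the table (*Acta1*) and was not called. The part of the adipocyte and macrophage markers in the adipokine results was not tested.

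The adipocyte markers were lower on HFD on average, so centring on them adds the same amount to every log2 fold change of a diet comparison. Values of all genes thus move upward, and the shifts are not particular to *Lep* or *Adipoq*. When each mouse was centred on the mean log2 value of the 12 markers, the median log2 fold change of all genes with HFD came to 0.66 in control mice and 0.81 in ASKO mice, and the values below are to be read against these medians. On this scale, *Lep* rose by 2.64 in control mice (limma adjusted p = 5.84e-05) and by 2.37 in ASKO mice (limma adjusted p = 0.000121). *Retn* fell by 2.13 in control mice (adjusted p = 0.0126) and by 2.25 in ASKO mice (adjusted p = 0.00715). *Adipoq* was still called in control mice (log2 fold change -1.004, adjusted p = 0.0155), but in ASKO mice its value of -0.59 was not (adjusted p = 0.104). *Rbp4* came to -0.64 and -0.04, *Nampt* to 0.21 and 1.05 and *Rarres2* to 0.77 and 0.28, none of them called.

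A ratio taken within a mouse does not depend on how its library was scaled. The ratio of *Lep* to *Adipoq* FPKM was 0.104, 0.0967, 0.110 and 0.128 in chow-fed control mice and 1.65, 1.38, 1.41 and 1.11 in HFD-fed control mice. In the ASKO mice it was 0.107, 0.170, 0.186 and 0.0962 on chow and 1.08, 1.69, 0.789 and 0.867 on HFD. No mouse on chow had more *Lep* than *Adipoq*, while all 4 control mice and 2 of 4 ASKO mice on HFD did. The log2 ratio rose by 3.64 with HFD in control mice and by 2.96 in ASKO mice (exact permutation tests, two-sided, p = 0.0286 for each, the smallest that 4 mice against 4 allow). Between the genotypes, the log2 ratio differed by 0.30 on chow (ASKO minus control, exact permutation p = 0.343) and by -0.38 on HFD (exact permutation p = 0.2), both within the spread between mice, and the interaction was -0.68 (exact permutation p = 0.0804). That last value rested in part on single mice, since it ranged from -0.90 to -0.52 when 1 mouse was left out (exact permutation p between 0.0196 and 0.157).

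**Figure D2:**
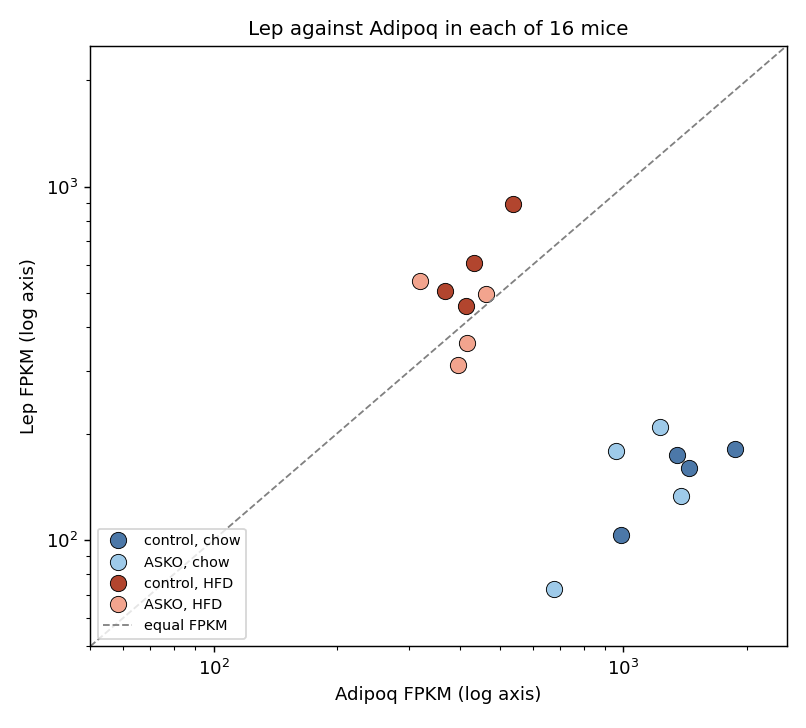
*Lep* FPKM (vertical log axis) against *Adipoq* FPKM (horizontal log axis) in each of the 16 mice, coloured by group, with a dashed line where both are equal. The 8 chow mice lie far below the line, all 4 control mice on HFD lie above it, and the ASKO mice on HFD fall on both sides.

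FPKM values are per length of transcript, so the levels of the 6 genes can be set side by side within a mouse. *Adipoq* was the highest of the 6 in every mouse on chow, and its group mean ranked 54th among all genes in control mice and 83rd in ASKO mice. *Adipoq* took 72.7% ± 2.97 of the 6-gene sum in control mice on chow and 61.8% ± 6.32 in ASKO mice on chow, and on HFD 35.9% ± 3.18 and 39.4% ± 6.91 (SD, n = 4). *Lep* took 7.97% ± 0.840 and 8.52% ± 2.33 on chow and 49.2% ± 3.90 and 41.4% ± 6.56 on HFD. The share of *Retn* was 8.45% ± 1.81 in control mice and 14.4% ± 2.88 in ASKO mice on chow, and 2.28% ± 1.597 and 2.85% ± 0.818 on HFD. The sum itself was 1956 ± 542 and 1701 ± 376 FPKM on chow and 1238 ± 309 and 1021 ± 128 FPKM on HFD (SD, n = 4). By group means on chow, *Adipoq* came first in both genotypes and *Retn*, *Lep*, *Rbp4* and *Rarres2* followed in that order in control mice, and each of these 4 overlapped the next. The same order held in chow-fed ASKO mice, again with overlap between neighbours among these 4. On HFD, *Lep* had the highest mean and *Adipoq* the second in both genotypes, with ranges that overlapped. *Rarres2* came next in HFD-fed control mice and lay clear of *Rbp4*, while *Rbp4* and *Rarres2* overlapped in HFD-fed ASKO mice. *Nampt* came last in all 4 groups, and on HFD its values overlapped those of *Retn*.

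**Figure D3:**
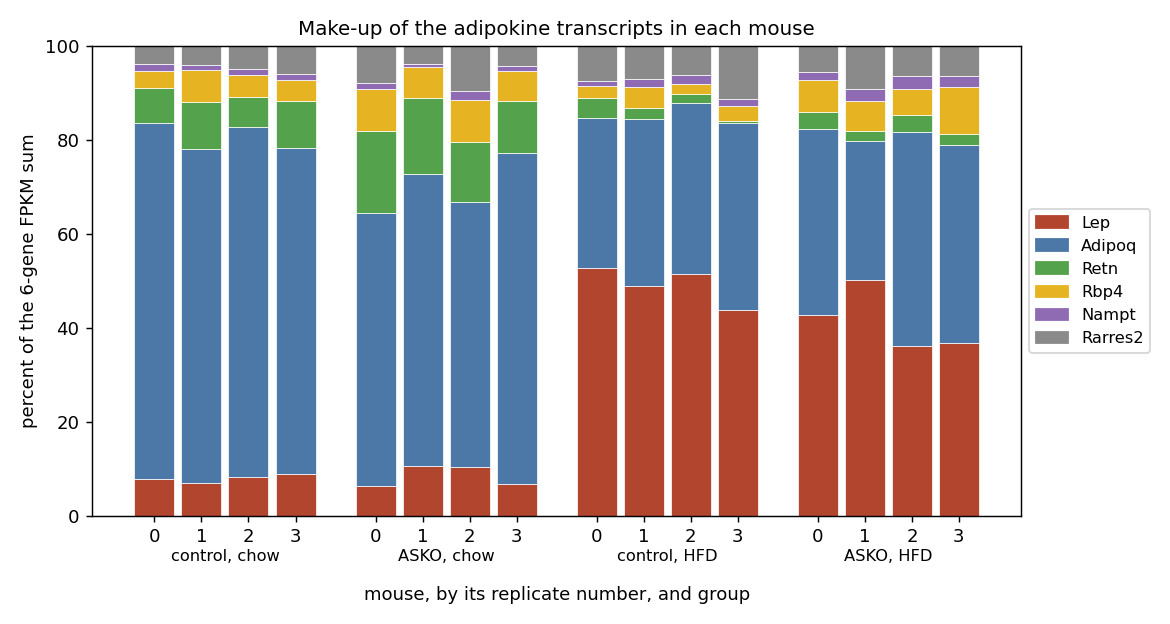
Share of each gene in the summed FPKM of the 6 adipokine genes (vertical axis, percent), with 1 bar per mouse, ordered by group and replicate number. *Lep* takes between 6.23% and 10.6% of the sum on chow and between 36.1% and 52.7% on HFD.

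Next, the genotypes were compared within each diet. The ASKO mice differ from the control mice both in the deletion of *Mboat7* and in the Cre transgene. No group carried the Cre without the floxed allele, so the effects of the deletion and of the transgene cannot be told apart. None of the 6 genes was called on chow, where 0.00761% of all tested genes were (1 of 13148), and none had an unadjusted p under 0.05. On HFD, again none of the 6 was called against 0.00761% of all tested genes, and 1 of the 6 had an unadjusted p under 0.05. At an unadjusted p under 0.05, limma gave 631 genes on chow and 677 on HFD. Genotype groups did not overlap for 0 of the 6 on chow (2.19% of all tested genes) and for 1 of the 6 on HFD (3.38%).

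*Rbp4* was the gene whose groups did not overlap on HFD. Its values of 77.7, 68.5, 48.9 and 98.3 FPKM in ASKO mice all lay above those of 41.6, 47.5, 24.9 and 34.4 FPKM in control mice, although the closest pair, 48.9 and 47.5 FPKM, nearly met. The means were 73.4 ± 20.5 and 37.1 ± 9.71 FPKM (SD, n = 4), a 1.98-fold difference. The exact permutation p of 0.0286 (two-sided, unadjusted) is the smallest that 4 mice against 4 allow. Any gene whose groups do not overlap gets it, so it adds nothing to the lack of overlap. The log2 difference of 0.96 (SE 0.36, 95% interval 0.20 to 1.71) failed the correction over all genes (limma adjusted p = 0.876, and between 0.355 and 1 over the alternatives). Centred on the adipocyte markers, the difference was 1.02. On chow it was 0.48 (95% interval -0.27 to 1.24), and the interaction was 0.48 (SE 0.51), so a difference between the diets was not shown. The control mice on HFD held only an estimated 7.11 to 15.8 fragments of *Rbp4*.

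No genotype difference in the other 5 genes passed a test. On HFD, *Lep* was 1.44-fold higher in the mean of the control mice than in that of the ASKO mice, with a log2 difference of -0.52 (ASKO minus control, 95% interval -1.21 to 0.18, exact permutation p = 0.143). The control mouse at 891 FPKM stood above the other 7 mice, and without it the difference was -0.32. On chow, the *Lep* difference was -0.13 (95% interval -0.82 to 0.57). *Adipoq* differed by -0.43 on chow (95% interval -0.96 to 0.11, exact permutation p = 0.171) and by -0.14 on HFD (-0.67 to 0.40), and on HFD the sign turned under quantile normalization (0.05) and when libraries were rescaled without their 10 highest genes (0.02). *Retn* differed by 0.58 on chow (95% interval -0.58 to 1.73) and by 0.34 on HFD (-0.81 to 1.497). On HFD, the mean FPKM went the other way, at 29.0 in ASKO mice and 31.5 in control mice, so the direction on HFD depends on the scale. Without the control mouse at 4.98 FPKM, the HFD difference of *Retn* was -0.30. *Nampt* and *Rarres2* differed by -0.35 and 0.17 on chow and by 0.36 and -0.45 on HFD, with groups that overlapped. These intervals allow differences of about 1 on the log2 scale in several genes, so the values do not show that the genotypes are alike.

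The response to diet was also compared between the genotypes. No tested gene was called for the interaction of genotype and diet (0% of 13148, with 828 at an unadjusted p under 0.05), and none of the 6 had an unadjusted p under 0.05. The limma estimates were -0.39 for *Lep*, 0.29 for *Adipoq*, -0.23 for *Retn*, 0.48 for *Rbp4*, 0.71 for *Nampt* and -0.62 for *Rarres2*, with standard errors between 0.36 and 0.77. The sign of the *Retn* value turned when libraries were rescaled without their 10 highest genes (0.08).

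**Figure D4:**
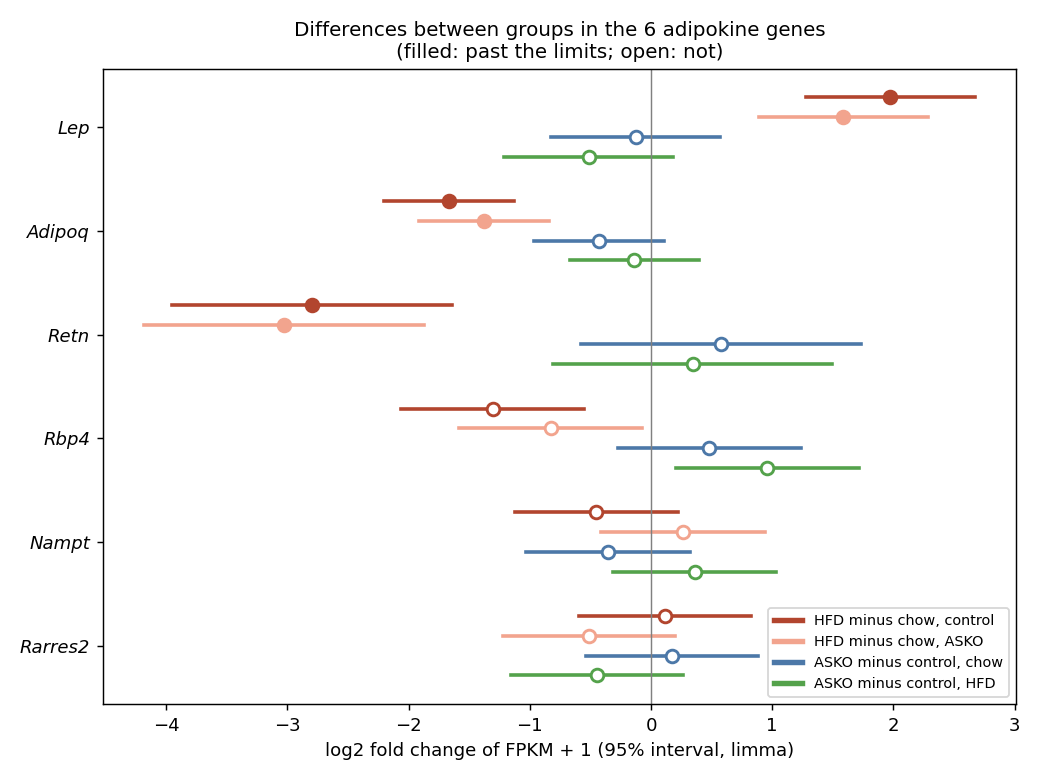
log2 fold change of FPKM + 1 (horizontal axis) with its 95% interval from limma for each adipokine gene and each of 4 comparisons (colours), with filled points for those past the limits. The filled points are those of *Lep*, *Adipoq* and *Retn* with diet in both genotypes, and all genotype points are open.

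Receptors and binding proteins of these adipokines were measured in the same tissue. Of 12 such genes on the list, 10 were in the table (not *Stra6* and *Gpr1*) and 9 were tested, and none was called in any of the 5 comparisons. With diet, 2.91% and 3.43% of all tested genes were called in control and ASKO mice, so none among 9 is near that share. The median log2 fold change of the 9 with HFD was -0.07 in control mice and 0.12 in ASKO mice. *Lepr*, the leptin receptor, was at 1.71 FPKM or less in all mice and at 0 in 11 of 16. *Adipor2* and *Adipor1* encode the adiponectin receptors. *Adipor2* was at 94.3, 88.6, 76.8 and 47.4 FPKM in chow-fed control mice and at 17.6, 31.5, 59.9 and 38.0 FPKM in HFD-fed control mice, which overlapped (log2 fold change -1.12, SE 0.38, limma adjusted p = 0.153). In ASKO mice, *Adipor2* had means of 58.5 ± 22.5 FPKM on chow and 46.7 ± 6.90 FPKM on HFD (SD, n = 4). *Adipor1* was at 3.53, 5.10, 12.6 and 6.89 FPKM in chow-fed ASKO mice and at 14.0, 12.05, 13.1 and 14.5 FPKM in HFD-fed ASKO mice (log2 fold change 0.96, SE 0.37, limma adjusted p = 0.207). In control mice, *Adipor1* was at 10.1 ± 1.70 and 10.2 ± 3.24 FPKM (SD, n = 4).

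*Cmklr1*, the chemerin receptor, was at 29.0, 9.71, 13.0 and 12.6 FPKM in chow-fed control mice and at 8.01, 8.11, 4.77 and 2.51 FPKM in HFD-fed control mice. These groups did not overlap, but the log2 fold change of -1.30 did not pass the limits (SE 0.46, limma adjusted p = 0.172). In ASKO mice, *Cmklr1* was at 14.7, 10.6, 6.94 and 28.2 FPKM on chow and at 7.97, 9.99, 13.1 and 10.2 FPKM on HFD, which overlapped (log2 fold change -0.36, limma adjusted p = 0.790). *Ccrl2*, which binds chemerin without signalling, was at 0 in 10 of 16 mice. *Cap1*, a resistin-binding protein, ran from 44.7 to 126 FPKM over the 16 mice with similar group means (71.1 to 77.9 FPKM), and its exons overlap those of *Ppt1* on the other strand. *Tlr4*, the endotoxin receptor that resistin can also engage, was at 9.02 FPKM or less in every mouse, and *Cdh13*, the cadherin that binds adiponectin, at 6.47 FPKM or less. *Ttr*, the transthyretin that travels with RBP4, was at 0 in 6 mice and at up to 42.2 FPKM in others. *Stra6l*, a retinol transporter that takes up RBP4-bound retinol, was at 0 in 13 of 16 mice and was not tested.

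Other steps of the same pathways were read from lists of genes. Of 6 genes of leptin receptor signalling and 8 of adiponectin assembly and signalling, none was called in any comparison. Of 12 genes of NAD synthesis and use, 9 were tested and none was called. Over all tested genes, 2.91% and 3.43% were called with diet in control and ASKO mice, and 0.00761% with genotype on each diet. None called among so few genes is near those shares, so it is not a result about these pathways. Some of these genes were at 0 in many mice, such as *Socs3* (12 of 16) and *Prkaa2* (8 of 16). Of 12 genes of retinoid handling, 8 were tested, and 1 was called. *Dhrs3*, which returns retinaldehyde to retinol, was at 5.62, 2.91, 4.89 and 14.5 FPKM in chow-fed control mice and at 31.9, 37.1, 24.5 and 39.0 FPKM in HFD-fed control mice, and rose by 2.27 on the log2 scale (SE 0.42, limma adjusted p = 0.00497). In the ASKO mice, *Dhrs3* was at 20.9 ± 11.9 FPKM on chow and at 28.0 ± 5.18 FPKM on HFD (SD, n = 4), and the interaction was -1.76 (limma adjusted p = 0.655).

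Of 8 transcription factors that act on adipokine genes, 1 was called. *Cebpa*, a C/EBP factor of the mature adipocyte, was at 115, 113, 51.3 and 77.7 FPKM in chow-fed ASKO mice and at 42.6, 33.3, 39.7 and 37.7 FPKM in HFD-fed ASKO mice, and fell by 1.13 on the log2 scale (SE 0.30, limma adjusted p = 0.0484). In control mice, the value for *Cebpa* was -0.49 (limma adjusted p = 0.516), and the interaction was -0.64 (limma adjusted p = 0.842). All 8 factors had a log2 fold change below 0 with HFD in ASKO mice and 7 of 8 in control mice, with medians of -0.72 and -0.42. Over all tested genes the medians were 0.03 and 3.60e-05. Some of these falls were slight or in genes of low level. The mean of *Pparg* in ASKO mice was 22.5 FPKM on chow and 21.4 FPKM on HFD. *Srebf1* was at 0 in 5 of 16 mice and *Klf15* at 0 in 6. The exception in control mice was *Cebpb*, another C/EBP factor, which is named after its values were seen. *Cebpb* was at 13.3, 39.3, 0 and 0 FPKM in chow-fed control mice and at 69.1, 35.9, 21.4 and 48.4 FPKM in HFD-fed control mice, which overlapped (log2 fold change 3.07, SE 0.92, limma adjusted p = 0.0954, not called). In ASKO mice, its mean was 12.6 ± 3.07 FPKM on chow and 6.88 ± 4.42 FPKM on HFD (SD, n = 4), and its interaction was -3.99 (SE 1.30, limma adjusted p = 0.655). The exons of *Cebpb* overlap those of *Tmem189* on the other strand. Of 23 other secreted factors often named as adipokines, 17 were tested. *Grn*, the gene of progranulin, was at 2.75, 2.96, 7.80 and 8.98 FPKM in chow-fed control mice and at 34.0, 27.3, 20.8 and 28.1 FPKM in HFD-fed control mice. *Grn* rose with HFD by 2.23 in control mice (limma adjusted p = 0.00909) and by 2.33 in ASKO mice (limma adjusted p = 0.00587) on the log2 scale. *Agt*, the gene of angiotensinogen, was at 8.67, 8.46, 14.0 and 31.3 FPKM in chow-fed ASKO mice and at 0, 1.63, 1.25 and 0 FPKM in HFD-fed ASKO mice, and fell by 3.22 (limma adjusted p = 0.0170). In control mice, the value for *Agt* was -1.92 (limma adjusted p = 0.196). The macrophage markers given above were called higher on HFD in the same mice for 5 and 7 of 10 genes, and their part in these values was not tested.

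**Figure D5:**
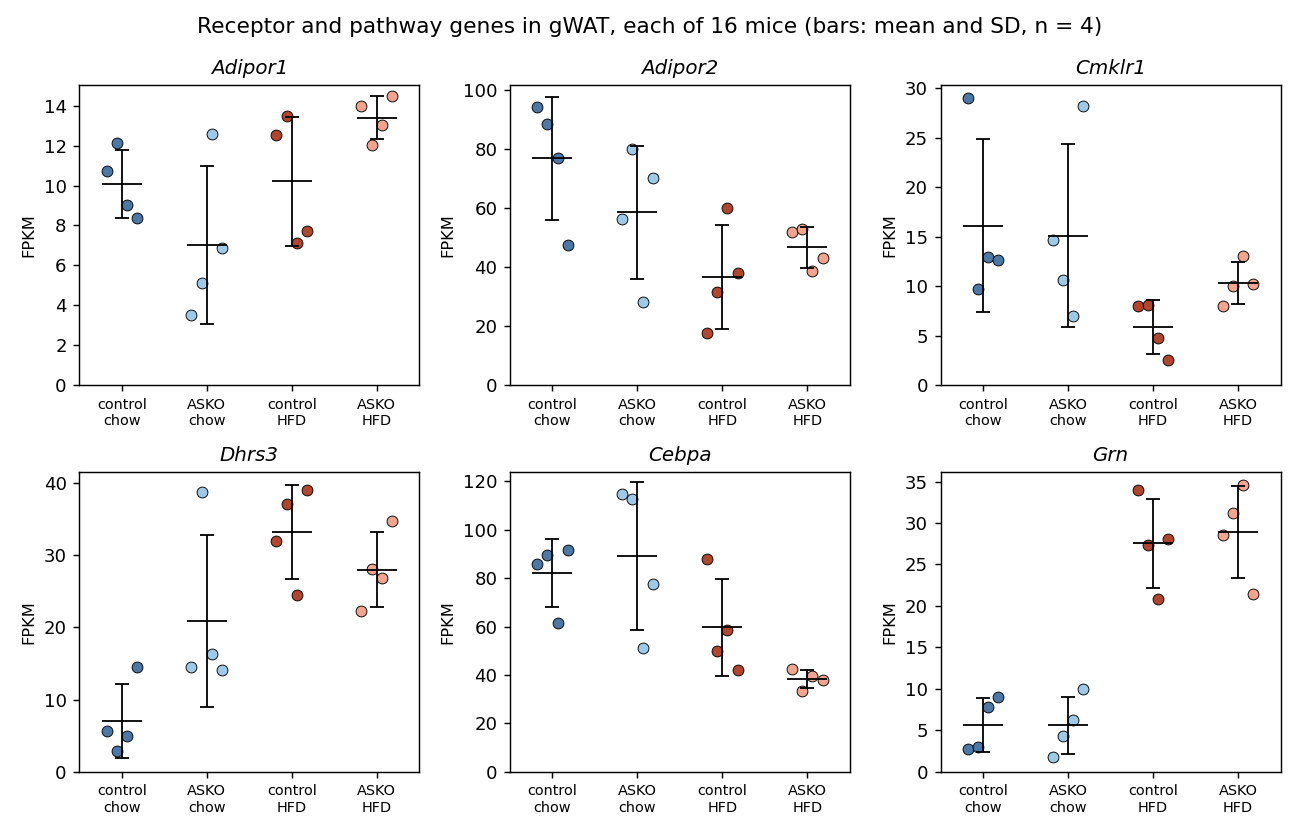
FPKM of *Adipor1*, *Adipor2*, *Cmklr1*, *Dhrs3*, *Cebpa* and *Grn* (vertical axes, each from 0) in every mouse of the 4 groups (points), with the group mean and SD (bars, n = 4). The *Grn* points lie between 20.8 and 34.6 FPKM on HFD and between 1.78 and 10.04 FPKM on chow, while the groups of *Adipor1* and *Adipor2* overlap in part.

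Genes with a pattern like that of each adipokine were listed by the Pearson correlation of log2(FPKM + 1) over the 16 mice, among 3919 tested genes with a mean of at least 10 FPKM. The mice share their diet group and their library, so these are descriptions. For *Lep* they were *Mfge8* (r = 0.95), *Lgals3* (r = 0.94) and *Sparc* (r = 0.92), and after the group means were taken out r was 0.76, 0.76 and 0.78. For *Adipoq* they were *Car3*, *Ces1d* and *Cdo1* (r = 0.96, 0.93 and 0.93), and without group means r was 0.70, 0.48 and 0.67. *Car3* was also among the 3 for *Retn* (r = 0.93), with *Stx16* (r = 0.93) and *Eepd1* (r = 0.91), and without group means r lay between 0.64 and 0.76. *Rbp4* was most like *Dhrs7*, *Glmp* and *Gsta3* (r = 0.87, 0.84 and 0.84), or 0.70, 0.81 and 0.65 without group means. *Nampt* and *Rarres2*, which did not separate the diets, had lower values of r, at most 0.76 for *Nampt* (*Gm4540*, *Myl6* and *Ssb*) and at most 0.81 for *Rarres2* (*Gm2245*, *Cdk4* and *Gm10275*). Without group means, r was 0.68, 0.85 and 0.67 for *Nampt* and 0.83, 0.84 and 0.90 for *Rarres2*, the last 3 above those of *Lep* and *Adipoq*.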

How the data were processed

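RNA from gWAT of 16 mice was sequenced with a directional mRNA kit. Reads were trimmed (TrimGalore) and mapped to mm10 (STAR) by the authors, whose deposited FPKM values came from Cufflinks, in 1 column per mouse. The GENCODE release, the library scaling in Cufflinks and the use of strand are not given in the sources used here. Identifiers were annotated with GENCODE M21.

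From the deposited FPKM, log2(FPKM + 1) was computed and genes that reached 1 FPKM in 4 or more mice were kept (13148 of 19373). Groups were compared with limma 3.58.1 (R 4.3.3), in a single fit of the 4 groups with an intensity trend and without covariates, and with Benjamini-Hochberg adjustment within each of 5 contrasts. The fit was tested on simulated data. For single genes and ratios, exact permutation tests over mice were used, two-sided. For interactions, genotype labels were regrouped within each diet, which assumes no genotype difference on either diet rather than equal responses to diet. The limma p-values use the spread between mice within groups, pooled over the 4 groups and moderated across genes. The exact tests use only the mice compared.

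The table gives no counts, so the steps between low values gave an estimate of depth, read in coding transcripts of at least 1000 bases, an approximate scale. The fragments of a gene use its median transcript length, so they are approximate too.

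The 6 genes and all lists were chosen with earlier results of these data known. Named were the 6 genes, *Mboat7*, all receptors, up to 5 called genes of each other list, some of the markers, and for each of the 6 the 3 genes most like it. Alternatives were another pseudocount (0.1), filter (none or 5 FPKM), scaling, centring, variance model, adjustment, a replicate block and leaving out each mouse. Tables and plots used Python 3.11.15, pandas 2.3.3, numpy 2.4.6 and matplotlib 3.10.9.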

Additional observations from a re-analysis of the deposited data

Results flagged for a closer look

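In 40 sets of 4 values (the 6 genes, *Mboat7* or a library measure in each group), 5 had 1 mouse far from the other 3 by Dixon's test at its 95% limit, where chance gives about 2. In ASKO mice on chow, *Retn* was 316 FPKM in replicate 1, against 203 to 221 FPKM in the other 3. Control replicate 1 on chow summed to 772406 FPKM, where the other 3 lay between 611890 and 636209, and its 10 highest genes took 41.9% of that sum, against 35.4% to 35.8%. ASKO replicate 3 on HFD had 54.2% of its sum in the 10 highest genes, while the other 3 had between 38.7% and 39.2%. Control replicate 0 on HFD, the mouse with the highest *Lep* value, had an estimated 405163 fragments (others 287232 to 304384). With any of these mice left out, *Lep*, *Adipoq* and *Retn* were still called with diet in the genotype concerned.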

How the results depend on the processing

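The calls of *Lep*, *Adipoq* and *Retn* with diet kept their direction under every alternative run. A call was lost for *Adipoq* in ASKO mice when centred on adipocyte markers (-0.59), and for *Retn* in control mice and *Lep* in ASKO mice when only the groups compared were fitted. *Rbp4* in control mice gained a call with a filter of 5 FPKM, when rescaled without the 10 highest genes, and without control chow replicate 0. Other signs turned only in values that were not called. *Adipoq* between genotypes on HFD came to 0.052 (quantile normalization) and 0.025 (rescaled without the 10 highest genes). *Retn* in the interaction came to 0.075 (rescaled), *Nampt* with diet in control mice to 0.21 (centred) and *Rarres2* with diet in ASKO mice to 0.28 (centred). With 1 mouse left out, *Lep* between genotypes on chow ranged from -0.33 to 0.18, *Retn* between genotypes on HFD from -0.30 to 0.91 and in the interaction from -0.88 to 0.34, and *Rarres2* from -0.15 to 0.24 with diet in control mice and from -0.092 to 0.30 between genotypes on chow. The interaction of the *Lep* to *Adipoq* ratio ranged from -0.90 to -0.52, and its exact permutation p was under 0.05 without ASKO chow replicate 3 (-0.84) or ASKO HFD replicate 1 (-0.90). The cause of these shifts was not tested.

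Over all genes, the 383 diet calls in control mice became 1076 when centred (95.4% higher, against 62.1%), 255 with only the groups compared, and 255 to 333 with 1 mouse left out. The 451 in ASKO mice became 1610 when centred (97.2% higher, against 62.1%), 265 with only the groups compared, 286 with adjustment over 5 contrasts, and 265 to 378 with 1 mouse left out, and rescaling without the 10 highest genes gave 76.0% higher among 462. That rescaling also put the median log2 fold change of all genes at 0.17 with diet in ASKO mice, 0.13 between genotypes on HFD and 0.25 in the interaction. The single genotype call became 2 with no filter on either diet and 11 on chow and 13 on HFD with adjustment over 5 contrasts. It became 0 on both diets with a filter of 5 FPKM, centring or the replicate block, 0 on chow with upper-quartile scaling, robust estimation or array weights, and 0 on HFD with quantile normalization or only the groups compared. With 1 mouse left out it ranged from 0 to 1 on chow and from 0 to 3 on HFD, and the interaction count from 0 to 1, with 8 after adjustment over 5 contrasts.

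The replicate numbers in the titles belong to different mice, and same-numbered mice did not deviate together (median r of 0.0066 over 24 pairs, from -0.19 to 0.15). With the replicate block, the calls were 361 and 390 with diet in control and ASKO mice and 0 in the interaction, and 3, 3, 0, 0 and 0 of the 6 adipokine genes. By the rough estimate of 229589 to 405163 fragments per mouse, genes of a few FPKM, such as *Mboat7* and *Lepr*, rested on few fragments. Moderate differences in such genes may be missed.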
